A study of Mus musculus with 2 samples.

Results

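The microRNA genes Mir328, Mir298, Mir101a and Mir101b were taken by symbol from the 2202 microRNA genes counted in mouse hippocampus, as 4 genes whose products have been reported to target Bace1 or App. The rule goes by gene name and by no measured level, though earlier results of these data were known when it was set. MicroRNA-seq, which sequences small RNA, was available for 2 libraries of 1 group: tissue labelled as a hippocampal layer from adult male mice of the strain 5xFAD/CAST, aged 8 to 10 months. 5xFAD is a transgenic model of Alzheimer disease whose mutant human APP transgene is driven by Thy1 promoter elements, and CAST is a wild-derived strain; the labels do not say how the 2 were combined. There was no control group, so no value here is an effect of the transgenes, of strain or of age. Both are called biological replicates (1 and 2) in the labels, each with a tissue record of its own but with the same donor record, so the spread between them may be technical.

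BACE1 is the beta-secretase, the protease that makes the first cut in the amyloid precursor protein APP on the way to amyloid beta. A microRNA guides Argonaute to messenger RNAs mainly by pairing of its seed, bases 2 to 8 from its 5′ end, with a site in the 3′ untranslated region, and lowers their stability or translation. miR-328 and miR-298 have been reported to act on Bace1 and miR-101 on App, both transcripts of neurons. Such a hairpin is cut into a 5p and a 3p arm, and the deposited counts are per hairpin gene, so the reads of the 2 arms are summed.

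The mature arms are shown because the letters of the seeds set which transcript each microRNA could pair with, and because the miR-101 pair differ by so little that short reads could fit both. RefSeq entries (GRCm38.p6) matched 3 of the 4 genes: Mir298, Mir101a and Mir101b. Sequences run 5′ to 3′, with the seed in capitals.
miR-298-5p: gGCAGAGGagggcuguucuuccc
miR-298-3p: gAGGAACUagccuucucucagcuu
miR-101a-3p: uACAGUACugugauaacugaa
miR-101b-3p: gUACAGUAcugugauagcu
miR-101a-5p: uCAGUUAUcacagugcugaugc
miR-101b-5p: uCGGUUAUcaugguaccgaugcu
RefSeq begins miR-101b-3p 1 base further upstream than miR-101a-3p, so their seeds, UACAGUA and ACAGUAC, are the same stretch read 1 base apart. No other mature name among the 1679 in the RefSeq table had any of these 6 seeds.

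The whole hairpins of the miR-101 pair show where they agree, with the mature arms in capitals.
Mir101a: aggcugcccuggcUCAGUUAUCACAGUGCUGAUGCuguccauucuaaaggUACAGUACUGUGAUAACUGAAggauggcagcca
Mir101b: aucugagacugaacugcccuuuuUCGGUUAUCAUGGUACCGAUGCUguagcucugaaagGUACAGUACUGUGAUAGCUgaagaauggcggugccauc
They share an unbroken run of 20 bases, aaagguacaguacugugaua, that covers bases 1 to 15 of miR-101a-3p and bases 1 to 16 of miR-101b-3p. The base after this run differs, A in Mir101a and G in Mir101b, and the letters cugaag then follow in both hairpins. RefSeq ends miR-101b-3p earlier in these letters than miR-101a-3p. Bases 2 to 20 of miR-101a-3p also occur in Mir101c (chr9:3038669-3038743), another annotated hairpin, which had 0 reads in both libraries. Reads with more than 1 possible origin are counted apart, without a gene, and they made up 41.6% of all reads in replicate 1 and 38.2% in replicate 2. Whether reads from the shared stretches fell in that class is not given in these sources, so the levels of Mir101a and Mir101b are reported as uncertain. Mir328 and Mir298 shared at most 17 and 12 bases with any other microRNA gene.

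The 3′ untranslated regions of Bace1 and App were searched on the sense strand for the reverse complement of each of these 6 seeds, with miR-328 not searched, in the GENCODE M21 transcript with the longest such region (4104 bases for Bace1 and 5646 bases for App). The letters searched were CCTCTGC for miR-298-5p, AGTTCCT for miR-298-3p, GTACTGT for miR-101a-3p, TACTGTA for miR-101b-3p, ATAACTG for miR-101a-5p and ATAACCG for miR-101b-5p. The letters of miR-298-5p occurred 2 times in Bace1 and 0 times in App, and those of miR-298-3p in neither. The letters of miR-101a-3p and of miR-101b-3p each occurred 2 times in App and 0 times in Bace1. The windows are printed as mRNA sense DNA letters of the reference strain, with the match in capitals.
Bace1, miR-298-5p (chr9:45860572-45860601, plus strand): agcttcagccctgacCCTCTGCccagcatc
Bace1, miR-298-5p (chr9:45861375-45861404, plus strand): gggctgatgcatttgCCTCTGCctggattt
App, miR-101a-3p (chr16:84955062-84955091, minus strand): attcatgggttttgtGTACTGTaaaaaaaa
App, miR-101b-3p (chr16:84955061-84955090, minus strand): ttcatgggttttgtgTACTGTAaaaaaaaa
App, miR-101b-3p (chr16:84954772-84954801, minus strand): tccatgactgcatctTACTGTAcagattgc
App, miR-101a-3p (chr16:84950469-84950498, minus strand): ctggcctaaagttgaGTACTGTtcacgaaa
At bases 255 and 256 of the App region the miR-101a-3p and miR-101b-3p matches overlap in the single stretch GTACTGTA, so these are 1 place in the transcript. The App match at base 4848 lies in the longest region alone: the other App coding transcripts searched, with regions of 687 to 931 bases, held 1 match for miR-101a-3p and 2 for miR-101b-3p. Both Bace1 matches were also present in the Bace1 transcript with a region of 2189 bases, and none in the one with 67 bases.

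Matches of this length are common. Among the longest 3′ untranslated regions of 21022 protein-coding genes, 20.2% held CCTCTGC, 9.39% held GTACTGT and 12.2% held TACTGTA. Among the 723 regions within 10% of the length of that of Bace1, 47.0% held CCTCTGC. Among the 355 within 10% of the length of that of App, 36.9% held GTACTGT and 42.8% TACTGTA. The split between the 2 transcripts depends on the length of match: with bases 2 to 7 alone, miR-298-5p had 5 matches in Bace1 and 2 in App, miR-101b-3p had 5 in App and 4 in Bace1, and miR-101a-3p had 3 in App and 0 in Bace1. These matches describe letters in the reference; no binding, Bace1 or App level was measured here, and neither CAST alleles nor the human APP transgene were examined.

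Of the 4 genes, Mir328 was by far the most abundant in both libraries. Levels are given as CPM, the reads of a gene for every 1000000 reads assigned to microRNA genes, of which there were 3421977 in replicate 1 and 2820468 in replicate 2. Detection required 10 reads or more in each library, which 389 genes reached, all 4 of these among them. Mir328 (ENSMUSG00000070130.1) had 38209 reads in replicate 1 and 48269 in replicate 2, which is 11166 CPM (exact Clopper-Pearson 95% interval 11055 to 11278) and 17114 CPM (16963 to 17266). Its mean was 14140 ± 4206 CPM (SD, n = 2), and it ranked 18 among detected genes in replicate 1 and 11 in replicate 2. Intervals cover counting error alone and take reads as independent. The counts have no molecular identifiers, so repeated reads of the same molecule are not removed and the intervals may be too narrow.

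Mir328 lies on the minus strand of chromosome 8 (chr8:105308364-105308460, mm10), opposite the protein-coding gene Elmo3, a member of the engulfment and cell motility family. Most of the hairpin faces an intron, and 12 of its 97 bases face an exon. The column of opposite-strand reads held 1 read at Mir328 in replicate 1 and 0 in replicate 2, so nearly every read there was on the strand of the microRNA. Gm27320, another annotated microRNA gene 463 bases away on the same strand, had 0 reads in both libraries, which allows up to 0.877 CPM in replicate 1 and 1.06 CPM in replicate 2 (3 reads).

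Mir298 (ENSMUSG00000065410.1), the other microRNA reported to act on Bace1, was present at a small part of the level of Mir328. It had 2695 reads in replicate 1 and 1236 in replicate 2, or 788 CPM (758 to 818) and 438 CPM (414 to 463), with a mean of 613 ± 247 CPM. The ratio of Mir328 to Mir298 reads was 14.2 in replicate 1 (95% interval 13.6 to 14.7) and 39.1 in replicate 2 (36.9 to 41.4). The gene lies at chr2:174267504-174267585, minus strand, outside other annotated genes, 378 bases from Mir296. Both hairpins are known as microRNAs of the imprinted Gnas region.

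Mir101b and Mir101a, both reported to act on App, came after Mir298 in mean level. Mir101b (ENSMUSG00000065556.1; chr19:29135279-29135375, plus strand) lies in an intron of Rcl1, a gene of ribosomal RNA processing, on the same strand. It had 1011 and 1849 reads in replicates 1 and 2, or 295 CPM (278 to 314) and 656 CPM (626 to 686), with a mean of 476 ± 255 CPM. Mir101a (ENSMUSG00000065451.1; chr4:101346945-101347027, minus strand) lies in an exon of the long noncoding RNA E130102H24Rik, on the same strand. It had 286 and 469 reads, or 83.6 CPM (74.2 to 93.8) and 166 CPM (152 to 182), with a mean of 125 ± 58.5 CPM.

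The 4 genes together took 1.23% of assigned reads in replicate 1 and 1.84% in replicate 2, and Mir328 supplied 90.5% and 93.1% of their reads. The order below Mir328 was not the same in the libraries. Mir298 stood above Mir101b in replicate 1 and below it in replicate 2, so these 2 neighbours in the order could not be separated with this spread. Mir101a was the lowest in both, and its 2 values lay below every value of the other 3. Hairpins were 82 to 97 bases long; per 100 bases of hairpin, Mir298 had 960 CPM and Mir101b 305 CPM in replicate 1, and 534 CPM and 676 CPM in replicate 2, the same reversal. The bias of small RNA ligation between sequences is not known here, so levels of different microRNAs compare reads and not molecules.

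**Figure D1:**
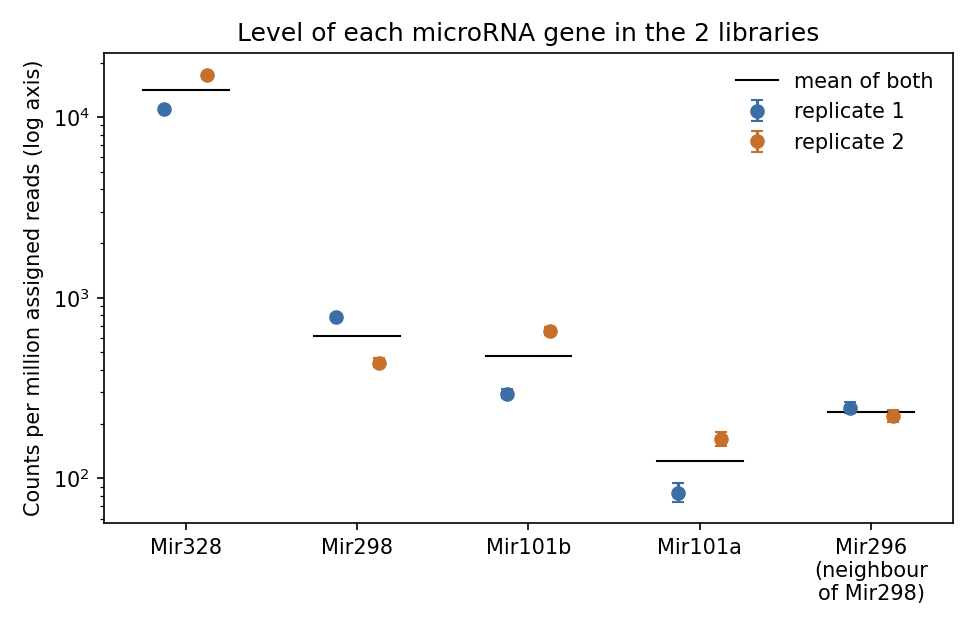
CPM (log axis) of the 4 genes and of Mir296, the neighbour of Mir298, in replicate 1 (blue) and replicate 2 (orange); bars are exact 95% counting intervals and black lines the mean of both libraries. Mir328 sits at 11166 and 17114 CPM, the values of Mir298 and Mir101b cross between 295 and 788 CPM, and Mir101a is lowest at 83.6 and 166 CPM.

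All 4 genes differed between the libraries by more than counting error: Mir328, Mir101b and Mir101a were higher in replicate 2 and Mir298 was lower. For each detected gene, its count in replicate 2 was tested against the share expected from the library sizes after TMM scaling (two-sided exact binomial test), with p-values adjusted by Benjamini-Hochberg over all 389 genes and a threshold of 0.05. This test compares 2 libraries and no conditions. It called 67.6% of detected genes (263 of 389), 33.9% higher and 33.7% lower in replicate 2, and 85.9% of the 241 genes counted 100 times or more in each library, so 4 calls among 4 well counted genes is near that background.

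Mir101b had a log2 ratio of 1.05 for replicate 2 over replicate 1 (95% interval 0.94 to 1.16), a 2.07-fold difference (exact binomial test, adjusted p = 1.65e-80). For Mir101a the log2 ratio was 0.89 (0.68 to 1.11; exact binomial test, adjusted p = 1.59e-16). Mir298 went the other way, with a log2 ratio of -0.94 (-1.04 to -0.85; exact binomial test, adjusted p = 1.51e-85), or 1.92-fold higher in replicate 1. In size the intervals of Mir101b, Mir101a and Mir298 overlap, so these 3 were not ranked. Mir328 had the smallest ratio, 0.52 (0.50 to 0.54), or 1.43-fold, with an adjusted p too small for the software to hold.

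Differences of this size were common in these libraries. The median size of the log2 ratio over detected genes was 0.52, as for Mir328, and 50.4% of detected genes had a larger one. The share with a larger ratio was 25.2% for Mir298, 26.5% for Mir101a and 19.8% for Mir101b. When the error was instead the spread between the libraries (edgeR exact test, common biological coefficient of variation 0.41), none of the 4 was called: the adjusted p was 1 for each, with unadjusted p between 0.23 for Mir101b and 0.55 for Mir328. That error is taken from the same 2 libraries, so it includes the difference under test. It called 2 of 389 genes (0.514%), and 23 (5.91%) had an unadjusted p under 0.05.

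**Figure D2:**
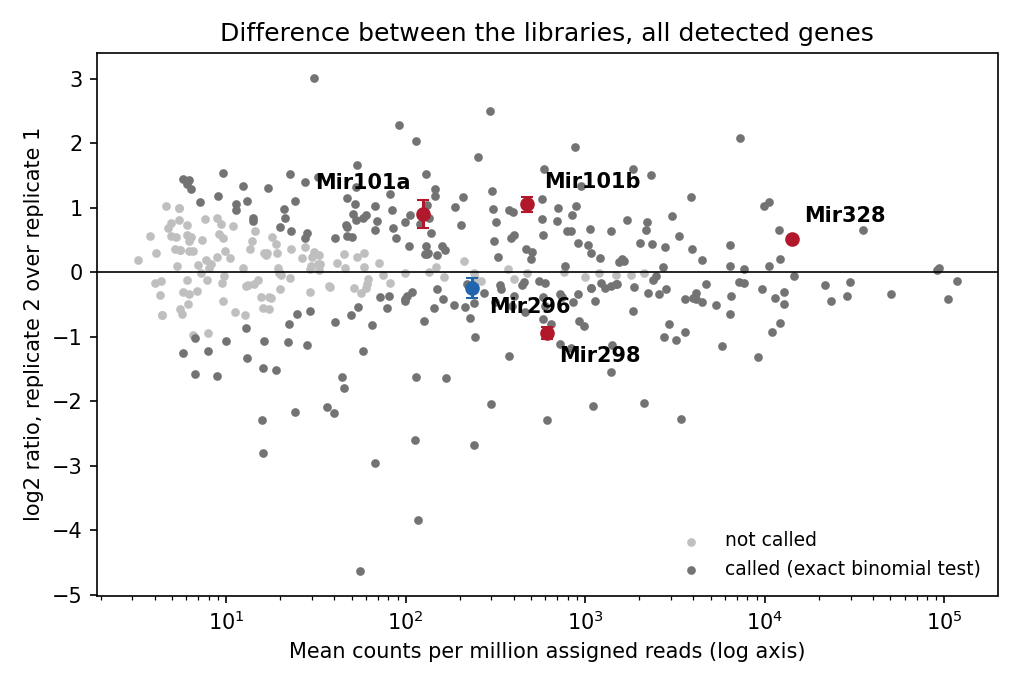
Log2 ratio of replicate 2 over replicate 1 on TMM-scaled counts against mean CPM (log axis) for the 389 detected genes, grey where not called and dark where called by the exact binomial test; red points are the 4 genes and blue is Mir296, with 95% counting intervals. Mir328 (0.52), Mir101a (0.89) and Mir101b (1.05) lie above 0 and Mir298 (-0.94) below it, all inside the cloud of other genes.

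Mir101b gave most of the reads of the miR-101 pair in both libraries, in close shares. Mir101b supplied 77.9% of the reads of the pair in replicate 1 (exact 95% interval 75.6 to 80.2, 1297 reads) and 79.8% in replicate 2 (78.1 to 81.4, 2318 reads), a mean of 78.9% ± 1.29. The 2 intervals overlap, which does not show that the shares were equal, while Mir101b itself differed 2.07-fold and Mir101a 1.86-fold between the libraries. The pair lie on different chromosomes. Neither 3p arm occurs whole in another annotated hairpin. Mir101c shares 19 bases with miR-101a-3p and 14 with miR-101b-3p, so any loss of reads to it could fall unequally on the pair. Any reads lost to Mir101c or to the shared 20 bases were not measured. Per base of hairpin, an alternative chosen after the data were seen, the mean share of Mir101b was 76.1%.

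Mir298 and its neighbour Mir296 differed unequally between the libraries. Mir296 (ENSMUSG00000065521.1; chr2:174267047-174267125, minus strand) had 843 and 628 reads, or 246 and 223 CPM, with a log2 ratio of -0.24 (-0.40 to -0.09; exact binomial test, adjusted p = 0.0023). The interval of this ratio does not overlap that of Mir298. Mir298 therefore made up 76.2% of the reads of the pair in replicate 1 (74.7 to 77.6, 3538 reads) and 66.3% in replicate 2 (64.1 to 68.5, 1864 reads), a difference of -9.86 percentage points for replicate 2 minus replicate 1. With library totals in place of TMM, Mir296 was not called (log2 ratio -0.15, exact binomial test, adjusted p = 0.079). The share within the pair needs no scaling, but it is not corrected for base composition. The hairpins differ in that, with 53.7% GC for Mir298 and 63.3% for Mir296. With the spread between the libraries as error, neither gene was called (edgeR exact test, unadjusted p = 0.28 for Mir298 and 0.78 for Mir296).

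**Figure D3:**
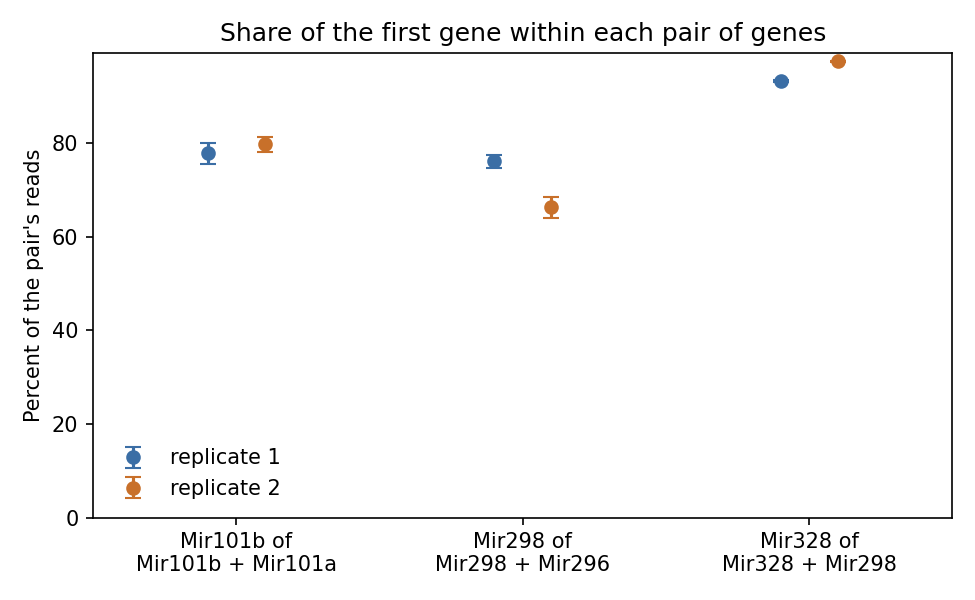
Percent of the reads of a pair of genes that came from the first gene, in replicate 1 (blue) and replicate 2 (orange), with exact 95% counting intervals. Mir101b holds 77.9% and 79.8% of the miR-101 pair, Mir298 holds 76.2% and 66.3% of its pair with Mir296, and Mir328 holds 93.4% and 97.5% of its pair with Mir298.

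Base composition moved with the difference between the libraries across all genes and is given beside it. Mir328, with a hairpin of 67.0% GC, was in the tertile of detected genes richest in GC, whose median log2 ratio was 0.36. Mir296 (63.3% GC), the neighbour of Mir298, was in the same tertile. Mir298 (53.7% GC), Mir101a (49.4%) and Mir101b (47.4%) were in the middle tertile, whose median was -0.04 and whose 10th to 90th percentiles ran from -1.07 to 1.00. Mir101b lay above that range, and Mir298 and Mir101a inside it on opposite sides. Unmapped reads made up 16.6% of all reads in replicate 1 and 22.6% in replicate 2. The part of composition and unmapped reads in these ratios was not tested.

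Markers of cell types that the labelled tissue could hold were present. The lists go by cell type, so they do not test whether the tissue was hippocampus or a layer of it. Of 12 neuronal hairpin genes 9 were detected, and the 12 took 3.36% and 3.51% of assigned reads. Mir124a-2 and Mir124a-3, copies of the defining neuronal microRNA, were at 0, and Mir124a-1 had 5 reads in each library. These copies have the same mature sequence, so reads of miR-124 may be missing from these counts. Oligodendrocyte genes took 0.503% and 0.667% (2 of 3 detected), microglia and leukocyte genes 0.407% and 0.346% (5 of 5), and red blood cell genes 0.0048% and 0.0060% (3 of 3). Endothelial and mural genes (3 of 3) took 2.17% in replicate 1 and 1.32% in replicate 2, and choroid plexus genes (5 of 5) 0.342% and 0.164%. Liver and muscle genes took 0.0051% and 0.0050%, with 2 of 6 detected. Within the endothelial and mural list the log2 ratio was -0.18 for the endothelial Mir126a, -1.32 for the mural Mir143 and -2.30 for the mural Mir145a. Within the choroid plexus list the log2 ratio was -1.55 for Mir34c, -0.84 for Mir204, -0.60 for Mir34b, -0.04 for Mir211 and 0.53 for Mir449a. The summed share of the choroid plexus list and both mural genes were lower in replicate 2, as Mir298 was. Mir126a and Mir211 were nearer to no difference, and Mir449a was higher in replicate 2. Of all detected genes, 33.7% were called lower in replicate 2. The part of the marker genes in the ratio of Mir298 was not tested. In bulk tissue, fewer cells of a type and less RNA per cell cannot be told apart.

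The 4 genes were also set among 29 other genes whose microRNAs have been reported to target Bace1 (18), App (10) or both (1), a list drawn from general knowledge. Of the 29, 24 were detected, and the list took 2.05% of assigned reads in replicate 1 and 2.54% in replicate 2. The 5 highest by mean CPM were all reported for Bace1. Mir29a, of a family rich in astrocytes and mature neurons, had 10822 and 13347 CPM, a mean below that of Mir328. Mir107 had 2773 and 2350 CPM, Mir485 had 1923 and 2798, Mir29c had 989 and 1006, and Mir195a had 716 and 820. None of the 10 genes reported for App alone reached the level of Mir195a by mean CPM; Mir323 was nearest, at 447 and 956 CPM.

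Of the 24 detected genes of the list, 13 were higher and 5 lower in replicate 2 by the exact binomial test and 6 were not called. That is 75.0% called, against 67.6% of all detected genes, of which 33.9% were higher and 33.7% lower. Among genes counted 100 times or more in each library, as all of the 24 but Mir135b and Mir9-1 were, 85.9% were called. The median log2 ratio of the 24 genes was 0.22, against 0.05 over all detected genes. Their median level was 245 CPM, against 105. Of the 14 detected genes reported for Bace1, 8 were higher, 2 lower and 4 not called, and of the 9 reported for App, 5 were higher, 3 lower and 1 not called. Mir384, reported for both, was at 231 and 246 CPM and was not called. Mir124a-2 and Mir124a-3 had 0 reads. Several of the list, the genes of miR-9, miR-124, miR-29b and miR-16 among them, are copies with the same mature sequence, so their reads may be missing from these counts.

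**Figure D4:**
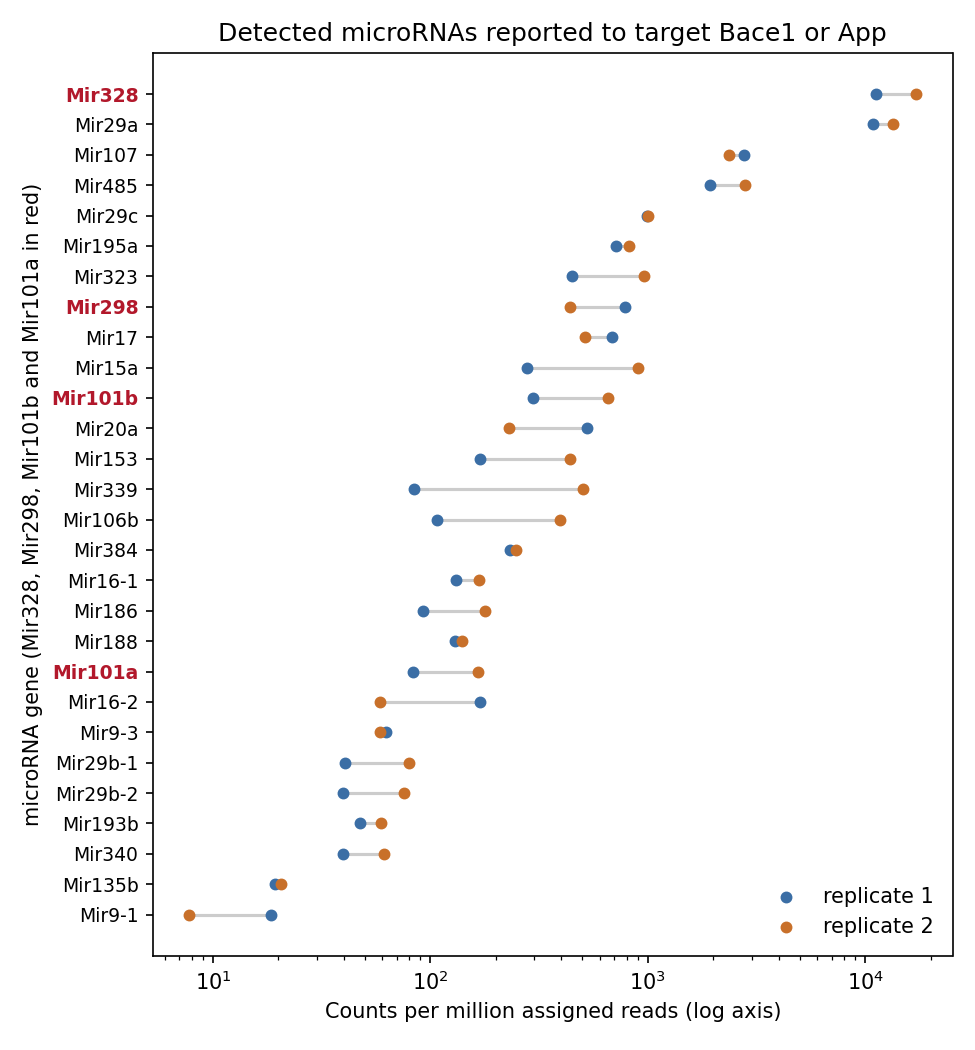
CPM (log axis) in replicate 1 (blue) and replicate 2 (orange) of the 24 detected genes of the list and the 4 genes in red, ordered by mean. Mir328 is at the top at 11166 and 17114 CPM, next to Mir29a at 10822 and 13347, while Mir298, Mir101b and Mir101a fall among the genes below Mir195a by mean.

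The genes closest in level to each of the 4 were found by Euclidean distance of log2(CPM + 1) over the 2 libraries, which measures likeness of level alone. For Mir328 they were Mir29a (distance 0.36), Mir330 (0.38) and Mir433 (0.42). For Mir298 they were Mir322 (0.16), Mir375 (0.17) and Mir17 (0.30). For Mir101b they were Mir7080 (0.36), Mir381 (0.37) and Mir92-1 (0.42), and for Mir101a they were Mir302b (0.12), Mir136 (0.12) and Mir186 (0.18). Mir29a, Mir17 and Mir186 are also on the list of reported Bace1 or App microRNAs.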

How the data were processed

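For each library the authors deposited unnormalized counts of reads at microRNA genes in 3 columns (any strand, the gene's strand, the opposite strand), of which the second was used. Per the deposited text notes, reads were placed on mm10 with GENCODE M21. The sources used here name no aligner, counter or trimming. The 4 rows that name no gene (64.8% and 67.0% of reads) were left out of library sizes. CPM, exact intervals and two-sided exact binomial tests were computed with scipy 1.17.1 in Python 3.11.15, and TMM factors, the common dispersion (intercept alone) and the edgeR exact test with edgeR 4.0.16 in R 4.3.3, with DESeq2 1.42.0 size factors as an alternative. A quasi-likelihood test needs a contrast between groups, and there was 1 group. The binomial test was run on simulated data with known answers. Apart from the differences set in them, those counts held counting error alone. The run therefore does not show how the test behaves with the spread of these libraries. Hairpin stretches and 3′ untranslated regions came from GENCODE M21 transcripts, mature sequences from RefSeq (GRCm38.p6). The rest of the genome was not searched for copies. Named were the 4 genes, hairpin genes within 10 kb, the 3 nearest in level to each, and from the list of other microRNAs the 5 highest and those at 0; Mir323, Mir384 and Mir101c were added with their values known. The genes and lists were chosen with earlier results of these data known. Alternatives were the scaling, the minimum count, the column of counts, the test, leaving out a library, the shared stretch and the length of seed match.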

Additional observations from a re-analysis of the deposited data

How the results depend on the processing

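Under library totals, DESeq2 size factors, reads without regard to strand, no minimum count and at least 100 reads, Mir328, Mir298, Mir101b and Mir101a kept their direction and their call in 5 of 5 alternatives each, with log2 ratios of 0.46 to 0.62, -0.998 to -0.846, 1.00 to 1.15 and 0.84 to 0.99. With the edgeR exact test the count of called genes fell from 263 to 2, and Mir328 (0.52), Mir298 (-0.94), Mir101b (1.05) and Mir101a (0.89) were not called (adjusted p = 1 for each), since that test takes the spread of both libraries as its error. Scaled to all reads of the tables, the mean CPM values were 4789 for Mir328, 211 for Mir298, 160 for Mir101b and 42.1 for Mir101a, since most reads carry no gene. Mir101b held 76.1% of its pair per hairpin base. With a stretch of 15 or 18 bases Mir101a shared sequence with 2 other genes, and with 15 bases Mir328 with 1. With bases 2 to 7, matches in App numbered 4 for miR-101a-5p, 5 for miR-101b-3p, 1 for miR-101b-5p, 1 for miR-298-3p and 2 for miR-298-5p. In Bace1 they numbered 1 for miR-101a-5p, 4 for miR-101b-3p, 1 for miR-298-3p and 5 for miR-298-5p. With bases 2 to 8 followed by A, 1 match each remained in App for miR-101a-3p, miR-101a-5p and miR-101b-3p, and 0 in Bace1 for miR-298-5p. Leaving out a library leaves 1 value and no test: means ran from 11166 to 17114 CPM for Mir328, 438 to 788 for Mir298, 295 to 656 for Mir101b and 83.6 to 166 for Mir101a. No paired analysis was possible because there was 1 group. Depth limits Mir101a most, with 286 and 469 reads.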

Other observations

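The 5p arms of the miR-101 hairpins differed from each other in their seed matches. The seed complement of miR-101a-5p, ATAACTG, occurred 2 times in the longest App 3′ untranslated region (chr16:84952253-84952282 and chr16:84949838-84949867) and 0 times in that of Bace1, and 33.2% of regions within 10% of the length of that of App held it. Neither match lies in the other App coding transcripts searched, whose regions have 687 to 931 bases. That of miR-101b-5p, ATAACCG, occurred in neither, and 3.66% of such regions held it. The counts do not say which arm the reads came from.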
